A study of Mus musculus with 23 samples.

Results

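Primary endothelial cells of the mouse aorta, which form its inner lining, were cultured for 48 h with plasma from ApoE-Stab1-KO mice or with plasma from Wildtype mice, and their RNA was compared on expression arrays. The comparison rested on the 6 arrays labelled ApoE-Stab1-KO and the 6 labelled Wildtype, 12 of the 23 arrays of the series, and on all 24704 genes that carried a symbol. Genotype here refers to the mice that gave plasma: every well held cells of the same commercial primary culture, with the strain given as C57BL/6J, and 10% donor plasma took the place of fetal calf serum once the cells were confluent. ApoE-Stab1-KO donors lacked apolipoprotein E and Stabilin-1 and had eaten a Western diet for 8 weeks. The labels name this diet for the 3 knockout donors and give none for the Wildtype donors, so loss of ApoE, loss of Stab1 and diet cannot be told apart in this comparison. The other arrays were 5 with ApoE-KO plasma and 6 with ApoE-Stab2-KO plasma, both from donors on the same diet, and they served to place the differences. The sources used here do not give donor age or sex or say whether plasma was pooled. Nothing in the labels says that the arrays of a group came from separate cultures or donors, and each p-value therefore reflects only the variation among these arrays, part or all of it possibly technical.

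Apolipoprotein E carries remnant lipoproteins to their receptors in the liver, and mice without it accumulate cholesterol-rich remnants in plasma, the more so on a fatty diet. Stabilin-1 and Stabilin-2 are scavenger receptors of liver sinusoidal endothelium that take modified lipoproteins, matrix fragments and other ligands out of the blood. Endothelial cells take in lipoprotein cholesterol, and their own sterol synthesis is set by the sterol sensor SCAP and the SREBP-2 transcription factor, which drives the enzymes of the pathway when membrane cholesterol is low. They also respond to their surroundings through Notch, VEGF, BMP and semaphorin signals, which set the growth and branching of vessels.

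The values were log2 levels on the deposited scale, on which a difference of 1 is a 2-fold change. The deposited arrays had nearly identical distributions (largest gap between sorted values 0.0019), so their likeness in distribution is no check of their quality. Pairwise correlations of the 12 arrays over all genes ran from 0.992 to 0.997. ApoE-Stab1-KO array 1 stood apart: 144 genes lay more than 1 log2 unit from the mean of the other 5 arrays of its group, against 13 to 17 genes on those 5 arrays and 7 to 24 on the Wildtype arrays. The counts of called genes, the sterol enzymes and the small nucleolar RNAs are given with and without this array. The cells carried the markers of their label, with all 12 endothelial markers above the median level of all genes (4.30), among them Pecam1 and Cdh5, the adhesion proteins of endothelial contacts. Of the lymphatic endothelial markers 3 of 6 exceeded it, with the hyaluronan receptor Lyve1 at 12.75, the VEGF receptor Flt4 at 9.64 and Pdpn at 5.02, while Prox1, the defining transcription factor of lymphatic vessels, was at 3.27. Of other cell types, 1 of 13 macrophage markers (Cd68, also a lysosomal protein), 3 of 12 fibroblast, 3 of 11 blood cell, 2 of 9 hepatocyte and 6 of 12 smooth muscle markers exceeded that level. The macrophage markers Ptprc and Adgre1 had mean levels of 2.98 and 3.25. Of these marker genes only Mcam and Egfl7, both expressed by endothelium, passed a limma adjusted p under 0.05 between the plasmas. Mcam was listed here with the smooth muscle markers. Differences were positive in 10 of 12 fibroblast markers (median 0.09, 3 at an unadjusted p under 0.05). They were negative in 9 of 12 smooth muscle markers (median -0.05, 2 at an unadjusted p under 0.05). In these bulk samples fewer cells of a type and less RNA per cell cannot be told apart.

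ApoE-Stab1-KO plasma changed 90 genes at an adjusted p under 0.05, which is 0.364% of the genes tested. With this plasma 43 genes rose (0.174%) and 47 fell (0.19%). An unadjusted p under 0.05 was reached by 2791 genes, against about 1235 expected with no difference. The changes of the 90 called genes were small, with a median size of 0.35 on the log2 scale, and only 11 reached 1.5-fold. Among those 11 the one gene that rose was Sprr1a, and 10 fell. Proteins were the product of 42 of the 43 genes that rose and of 30 of the 47 that fell, and the other 17 that fell were non-coding RNAs or pseudogenes. For 69 of the 90 genes every array of one plasma lay beyond every array of the other, a separation seen in 211 genes or 0.854% of all genes tested. The called genes included enzymes of cholesterol synthesis, lipid-handling proteins, 2 class 3 semaphorins and retinoid enzymes on the rising side, and Notch, growth factor and other endothelial genes, immediate early genes and small nucleolar RNAs on the falling side.

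Leaving out ApoE-Stab1-KO array 1 gave 124 called genes, and leaving out both this array and Wildtype array 1 gave 69. The count fell to 57 without ApoE-Stab1-KO array 3, to 54 without Wildtype array 1 and to 57 without Wildtype array 4. A fit on these 12 arrays alone, without the spread of the other 2 groups, called 21 genes. No gene of the 90 changed direction in any of these fits, which genes chosen by a small p on the same arrays could hardly do. Of the 90, 41 passed with each of the 12 arrays left out in turn. The called genes named below are among those 41 unless the text says otherwise. The fit on the 12 arrays alone ended the call of 71 of the 90 genes, and 17 genes passed in those 12 fits and in 7 other planned fits (centring, quantile normalization, the level filter, trend and robust moderation, array weights, these 12 arrays alone and a replicate block). Centring and quantile normalization could change little, because the arrays already had nearly the same distribution. Those 17 included Sema3e, Dll4, Dhrs9, Pdgfb, Sprr1a, Lss, Msmo1, Mcam, Cables2, Stab2, Mmp3, Nr4a1, Cyp26b1, Gm13609 and Mir1896, and Gm16617 passed in each fit that tested it. For all other genes named below as called against Wildtype plasma, except Snora7a, the fit on the 12 arrays alone ended the call.

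**Figure D1:**
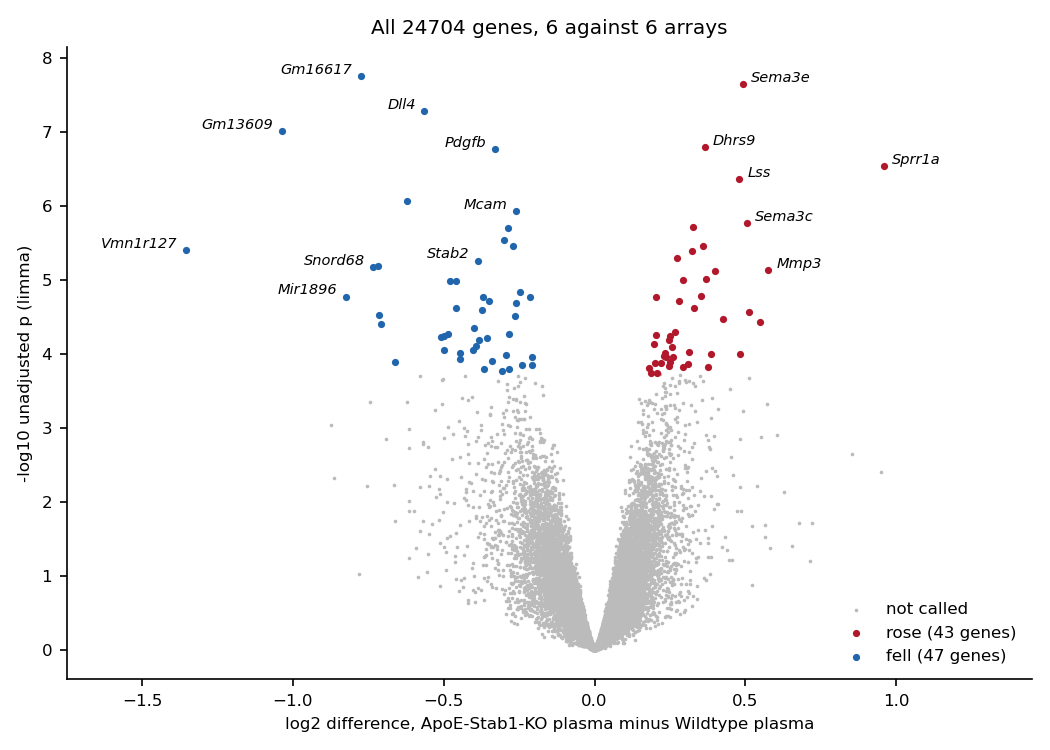
Each point is 1 of 24704 genes, with the log2 difference between ApoE-Stab1-KO and Wildtype plasma on the horizontal axis and the -log10 of limma's unadjusted p on the vertical axis. Red points are the 43 genes that rose, blue points the 47 that fell and grey points the rest. Sprr1a stands alone on the right, and Vmn1r127 and Gm13609 lie farthest to the left among the called genes.

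Lss, Cyp51, Msmo1 and Sqle, enzymes of cholesterol synthesis, rose. Lanosterol synthase (Lss), which closes the sterol rings, rose most among them: its level lay between 7.03 and 7.17 (median 7.09) on the Wildtype arrays and between 7.33 and 7.74 (median 7.60) on the ApoE-Stab1-KO arrays. No array of one plasma overlapped with the other, and the difference was 0.48 ± 0.069 (SE; limma adjusted p = 0.00131), a 1.39-fold rise. Cyp51, the lanosterol 14-demethylase of the next step, went from a median of 7.89 (7.64 to 8.00) to 8.20 (8.07 to 8.37), a rise of 0.37 ± 0.065 (limma adjusted p = 0.00898). Msmo1, the methylsterol monooxygenase that follows it, ran from 9.45 to 9.61 (median 9.59) with Wildtype plasma and from 9.77 to 10.11 (median 9.90) with ApoE-Stab1-KO plasma, a rise of 0.36 ± 0.060 (limma adjusted p = 0.00528). Both genes had non-overlapping groups. Squalene epoxidase (Sqle), which makes the substrate of Lss, rose by 0.28 ± 0.052 (limma adjusted p = 0.0130), from a range of 8.68 to 8.91 (median 8.83) to one of 9.02 to 9.25 (median 9.08), again without overlap.

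Of the 10 measured enzymes that lead from lanosterol to cholesterol, 3 passed the test and all 10 had a positive difference, with a median of 0.25 and a range from 0.01 to 0.48. The median over all genes tested was 0.004. Of the 9 measured enzymes of the mevalonate and squalene steps, 1 (Sqle) passed, 7 were positive and the median was 0.10. Hmgcs1, which makes the precursor of mevalonate, had a difference of 0.22 ± 0.054 (limma adjusted p = 0.0716), and its groups overlapped. Dhcr7, the reductase of the last step, ran from 7.63 to 7.84 with Wildtype plasma and from 7.68 to 7.83 with ApoE-Stab1-KO plasma, with a difference of 0.01 ± 0.055 (limma adjusted p = 0.959). The mean over all 19 enzymes lay between 7.60 and 7.76 on the Wildtype arrays and between 7.82 and 7.94 on the ApoE-Stab1-KO arrays, so that the arrays did not overlap for this mean either. Without ApoE-Stab1-KO array 1, a choice made after the data were seen, 4 of the 10 later enzymes (Sc5d in addition) and 2 of the 9 earlier ones (Hmgcs1 in addition) passed, with medians of 0.28 and 0.071, and 17 of all 19 stayed positive. None of the 12 measured genes of SREBP control and sterol transport was called by limma (4 at an unadjusted p under 0.05), although Insig1 passed without ApoE-Stab1-KO array 1. Insig1, which holds SCAP in the endoplasmic reticulum, was at 0.21 ± 0.060 (limma adjusted p = 0.133) and Tmem97, a sterol-regulated membrane protein, at 0.34 ± 0.088 (limma adjusted p = 0.0973).

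The other 2 knockout plasmas were set against the same 6 Wildtype arrays, so their differences share those controls. For Lss they were 0.71 with ApoE-KO plasma and 0.36 with ApoE-Stab2-KO plasma, against 0.48 with ApoE-Stab1-KO plasma. The 3 values for Msmo1 were 0.69, 0.38 and 0.36 in the same order, and those for Hmgcs1 0.53, 0.19 and 0.22. In the direct test of ApoE-Stab1-KO against ApoE-KO plasma Lss differed by -0.23 ± 0.072 (limma adjusted p = 0.810), Msmo1 by -0.33 ± 0.062 (limma adjusted p = 0.160), and Dhcr7 by -0.38 ± 0.058 (limma adjusted p = 0.0259). Dhcr7 was thus lower with ApoE-Stab1-KO plasma than with ApoE-KO plasma, with 7.68 to 7.83 on the ApoE-Stab1-KO arrays and 7.93 to 8.27 (median 8.21) on the ApoE-KO arrays. It was the single gene called in that comparison (0.00405% of all genes). An unadjusted p under 0.05 was reached there by 1377 genes, against about 1235 expected with no difference. In the same comparison no gene was called without ApoE-KO array 2 or 4 or ApoE-Stab1-KO array 1 or 5. Without ApoE-KO array 1 the single call was another gene.

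The windows of 250 bases before the start sites of the 3 later enzymes that rose are shown because they share the CCAAT box, which binds the NF-Y factor that acts beside SREBP at sterol genes. They are from RefSeq on GRCm38.p6, read on the strand of the gene, with each CCAAT, or ATTGG where the box lies on the other strand, in capitals. Lss is at chr10:76531355-76531604 (plus strand), Cyp51 at chr5:4104698-4104947 (minus strand) and Msmo1 at chr8:64733579-64733828 (minus strand).
Lss: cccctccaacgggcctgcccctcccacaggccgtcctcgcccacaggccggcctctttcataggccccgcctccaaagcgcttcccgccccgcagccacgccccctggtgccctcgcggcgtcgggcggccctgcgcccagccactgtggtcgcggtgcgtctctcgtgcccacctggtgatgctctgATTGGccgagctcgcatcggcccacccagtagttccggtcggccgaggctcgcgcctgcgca
Cyp51: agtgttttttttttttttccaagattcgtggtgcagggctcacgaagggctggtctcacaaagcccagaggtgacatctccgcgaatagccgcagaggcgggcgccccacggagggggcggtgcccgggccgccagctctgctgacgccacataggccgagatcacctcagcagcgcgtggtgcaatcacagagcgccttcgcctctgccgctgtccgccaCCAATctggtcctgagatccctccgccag
Msmo1: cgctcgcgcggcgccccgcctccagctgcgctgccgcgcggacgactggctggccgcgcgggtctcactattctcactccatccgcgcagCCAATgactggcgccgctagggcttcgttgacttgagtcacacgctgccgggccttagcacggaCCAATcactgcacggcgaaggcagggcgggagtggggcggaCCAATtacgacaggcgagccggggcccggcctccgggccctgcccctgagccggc
Counted back from the start site, the box lay at -62 to -58 in Lss and at -29 to -25 in Cyp51, and Msmo1 held 3 boxes. Of 19 such windows for 16 of the 19 measured sterol enzymes, 16 (84.2%) held CCAAT on either strand, against 34.8% of 22382 windows of all genes tested. The sterol element TCACNCCAC, also searched on both strands, was found in 1 of the 19 windows, that of Hmgcs1, and in 1.05% of all windows. A match describes the letters and shows no binding.

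**Figure D2:**
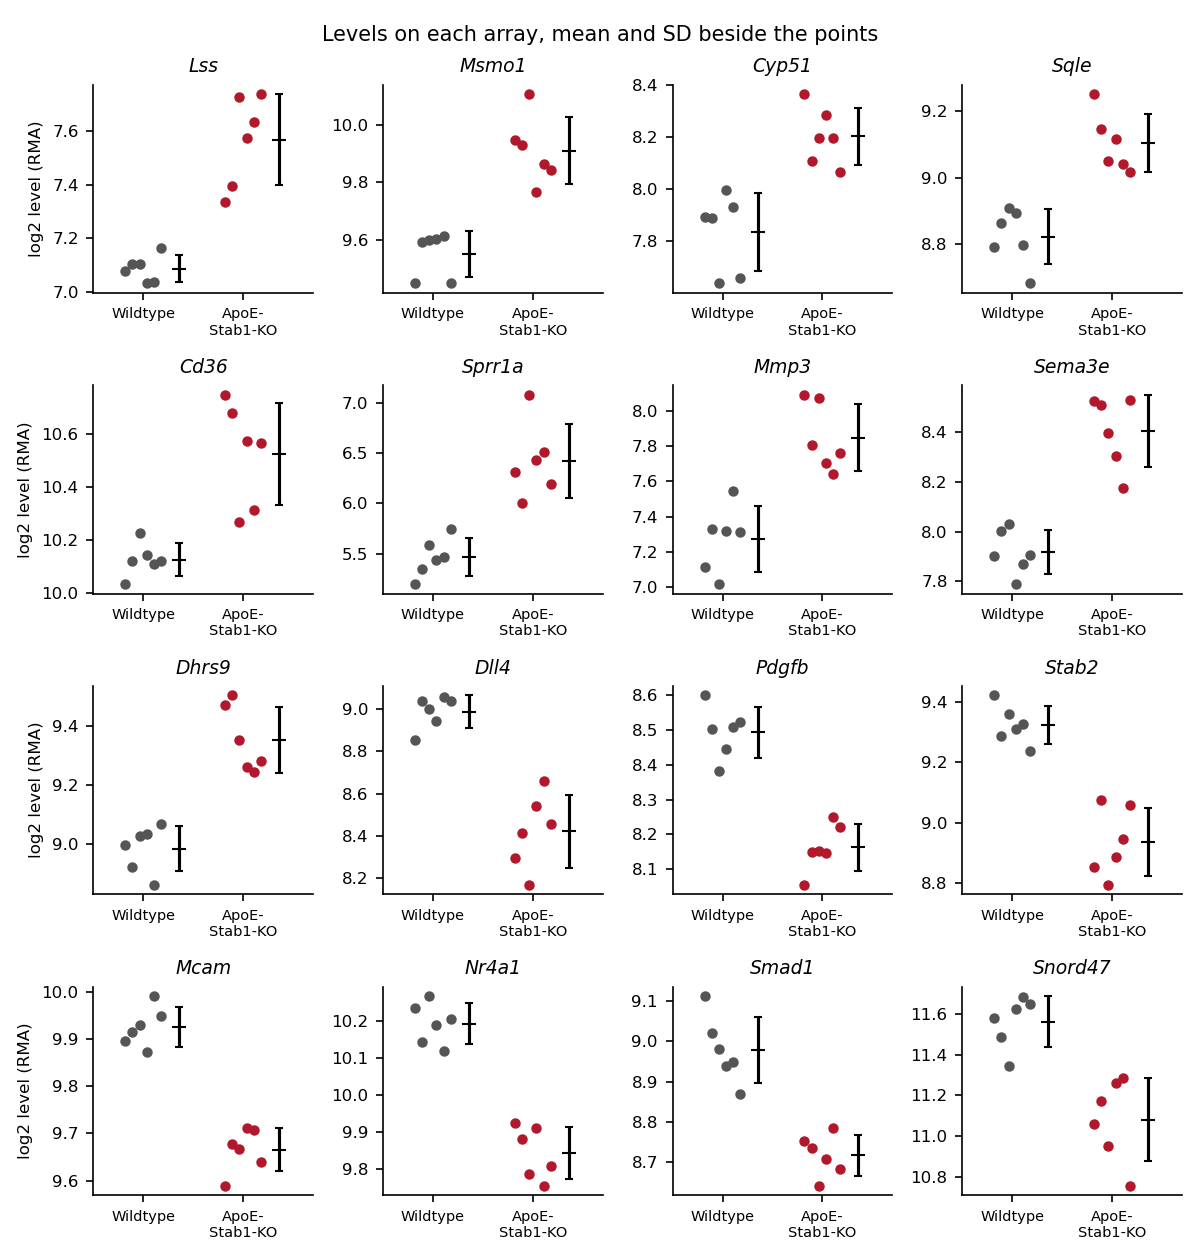
Each panel shows the log2 level of 1 gene on the 6 Wildtype arrays (grey) and the 6 ApoE-Stab1-KO arrays (red), with the group mean and SD beside the points. Vertical axes differ between panels and do not start at 0. The groups do not overlap in any of the 16 panels, with the first 9 genes higher and the last 7 lower with ApoE-Stab1-KO plasma.

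Genes of lipid uptake and fatty acid handling moved in both directions. Cd36, the fatty acid translocase and scavenger receptor, rose from a median of 10.12 (10.04 to 10.23) to 10.57 (10.27 to 10.75), by 0.40 ± 0.070 (limma adjusted p = 0.00779), with no overlap. Colec12, a scavenger receptor with a collectin domain, rose by 0.35 ± 0.065 (limma adjusted p = 0.0122), from a range of 5.09 to 5.50 (median 5.34) to one of 5.55 to 5.82 (median 5.64). Acot2, a mitochondrial acyl-CoA thioesterase, rose by 0.32 ± 0.054 (limma adjusted p = 0.00556). Acsl3, which activates long-chain fatty acids on lipid droplets, rose by 0.31 ± 0.068 (limma adjusted p = 0.0418), but its call ended in 7 of the 12 fits that left out an array (adjusted p up to 0.108). None of these 4 genes had overlapping groups.

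Stab2, the gene of Stabilin-2, was measured in the cultured cells and fell, from a range of 9.24 to 9.42 (median 9.32) with Wildtype plasma to one of 8.79 to 9.07 (median 8.92). The difference of -0.39 ± 0.066 (limma adjusted p = 0.00665) separated all arrays. With the other plasmas Stab2 differed from Wildtype by -0.29 (ApoE-KO) and -0.40 (ApoE-Stab2-KO). Stab1 itself did not pass, at -0.10 ± 0.050 (limma adjusted p = 0.461), with 10.05 to 10.26 on the Wildtype arrays and 9.90 to 10.18 on the ApoE-Stab1-KO arrays. Apoe of the cells had a difference of 0.00 ± 0.083 (limma adjusted p = 0.998), in cells for which the labels name no deletion. Gpihbp1, which holds lipoprotein lipase on the capillary wall, fell by 0.36 ± 0.073 (limma adjusted p = 0.0273), and this call ended in 7 of the 12 fits (adjusted p up to 0.0752). Of the 21 measured lipoprotein and scavenger receptors 2 rose and 1 fell (median difference 0.03), and of the 21 PPAR targets 1 rose and 1 fell (median 0.04). Angptl4, an inhibitor of lipoprotein lipase, had a difference of 0.22 ± 0.055 (limma adjusted p = 0.0792). None of the 4 measured genes of stabilin ligands was called by limma (1 at an unadjusted p under 0.05): Tgfbi was at -0.09, Postn at 0.13, Reln at 0.03 and Sparc at -0.05.

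Among the called genes the greatest rise was that of Sprr1a, a small proline-rich protein of the epithelial cell envelope that is also induced in stressed cells. Its level ran from 5.20 to 5.74 (median 5.45) with Wildtype plasma and from 6.00 to 7.08 (median 6.37) with ApoE-Stab1-KO plasma. One ApoE-Stab1-KO array lay clearly above the other 5, yet all 6 exceeded every Wildtype array, and the rise of 0.96 ± 0.13 (limma adjusted p = 0.000999) was 1.94-fold. Mmp3, the matrix metalloproteinase stromelysin-1, rose 1.49-fold, by 0.58 ± 0.10 (limma adjusted p = 0.00773), from a range of 7.02 to 7.54 (median 7.31) to one of 7.64 to 8.09 (median 7.78). It was the 1 gene that passed of 17 measured metalloproteinases and inhibitors, whose median difference was -0.01. Ereg, the EGF receptor ligand epiregulin, rose by 0.29 ± 0.052 (limma adjusted p = 0.00898), and was the 1 called gene of 13 EGF receptor ligands and receptors. The keratins Krt19 and Krt20 rose by 0.26 ± 0.056 (limma adjusted p = 0.0378) and 0.25 ± 0.054 (limma adjusted p = 0.0415), calls that ended in 8 and 9 of the 12 fits (adjusted p up to 0.0921 and 0.0990). Against the same Wildtype arrays Sprr1a differed by 1.16 with ApoE-KO and 1.09 with ApoE-Stab2-KO plasma, and Mmp3 by 0.42 and 0.59.

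The windows before Sprr1a and Mmp3 are shown because both hold an AP-1 element, TGANTCA, which reads the same on both strands and is in capitals. Sprr1a is at chr3:92485882-92486131 (minus strand) and Mmp3 at chr9:7445572-7445821 (plus strand), from RefSeq on GRCm38.p6.
Sprr1a: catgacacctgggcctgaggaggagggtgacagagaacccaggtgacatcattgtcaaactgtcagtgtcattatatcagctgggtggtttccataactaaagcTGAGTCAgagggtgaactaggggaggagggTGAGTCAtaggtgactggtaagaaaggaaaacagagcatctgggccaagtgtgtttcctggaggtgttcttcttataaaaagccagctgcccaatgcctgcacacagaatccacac
Mmp3: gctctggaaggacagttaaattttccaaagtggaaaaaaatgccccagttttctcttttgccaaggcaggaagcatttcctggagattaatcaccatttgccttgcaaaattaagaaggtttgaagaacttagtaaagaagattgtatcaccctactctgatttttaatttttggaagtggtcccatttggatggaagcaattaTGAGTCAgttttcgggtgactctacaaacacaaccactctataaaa
Sprr1a held 2 elements, at -146 to -140 and at -116 to -110 from the start site, and Mmp3 held 1 at -46 to -40. Of 39 windows for 35 of the 43 genes that rose, 8 (20.5%) held TGANTCA, against 2 of 38 windows (5.26%) for 34 of the 47 genes that fell and 6.38% of the windows of all genes tested. These are counts of letters in genes chosen by their change, and they carry no test.

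Class 3 semaphorins, secreted guidance cues for vessels and axons, gave the rise with the smallest p. Sema3e, the ligand of Plexin-D1, lay between 7.79 and 8.03 (median 7.90) with Wildtype plasma and between 8.17 and 8.53 (median 8.45) with ApoE-Stab1-KO plasma, and rose by 0.49 ± 0.059 (limma adjusted p = 0.000274). Sema3c rose by 0.50 ± 0.079 (limma adjusted p = 0.00367), from a range of 7.28 to 7.57 (median 7.42) to one of 7.63 to 8.13 (median 7.95). Neither gene had overlapping groups, and the other 22 measured semaphorins and receptors did not pass, with a median of -0.01 over all 24. Sema3e differed from Wildtype by 0.50 with ApoE-KO and 0.48 with ApoE-Stab2-KO plasma.

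Dhrs9, Cyp26b1 and Cyp1b1, enzymes of retinoid and steroid metabolism, rose as well. Dhrs9, a retinol dehydrogenase, went from a range of 8.86 to 9.07 (median 9.01) to one of 9.24 to 9.50 (median 9.32), a rise of 0.37 ± 0.049 (limma adjusted p = 0.000692) with no overlap. Cyp26b1, which degrades retinoic acid, rose by 0.51 ± 0.098 (limma adjusted p = 0.0162), from a median of 7.46 (7.34 to 7.76) to 7.95 (7.90 to 8.24). Cyp1b1, an aryl hydrocarbon receptor target that oxidises steroids and retinoids, rose by 0.39 ± 0.082 (limma adjusted p = 0.0365). Its groups overlapped and its call ended in 10 of the 12 fits (adjusted p up to 0.0828). These 3 were the genes called of 23 measured in that list, whose median difference was 0.05.

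Dll4, Pdgfb and Mfng, genes of Notch signalling and vessel growth, fell, and Vegfa rose. Dll4, the Notch ligand of arterial and sprouting endothelium, had the largest drop among the called genes of the pathway lists, from a range of 8.85 to 9.05 (median 9.02) with Wildtype plasma to one of 8.17 to 8.66 (median 8.43) with ApoE-Stab1-KO plasma. All 6 arrays lay below every Wildtype array, and the change was -0.56 ± 0.071 (limma adjusted p = 0.000421), which left 0.68 of the Wildtype level. Pdgfb, the growth factor with which endothelium recruits pericytes, went from a range of 8.38 to 8.60 (median 8.51) to one of 8.05 to 8.25 (median 8.15), a change of -0.33 ± 0.045 (limma adjusted p = 0.000692). Mfng, a glycosyltransferase that modifies Notch receptors, changed by -0.27 ± 0.044 (limma adjusted p = 0.00528), also without overlap. Vegfa, the main growth factor of blood vessels, rose by 0.25 ± 0.051 (limma adjusted p = 0.0264), with 7.60 to 7.77 against 7.86 to 8.13. The Vegfa call ended in 4 of the 12 fits (adjusted p up to 0.0770). Of the 30 measured genes of angiogenesis and Notch 1 rose, 2 fell and 21 had a negative difference (median -0.05). Among the receptors Kdr was at 0.09 ± 0.055 (limma adjusted p = 0.579), Tek at -0.07 ± 0.068 (limma adjusted p = 0.740) and Tie1 at 0.04 ± 0.052 (limma adjusted p = 0.856).

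The ephrins Efna1 and Efnb2, membrane-bound guidance ligands of which Efnb2 marks arteries, changed by -0.26 ± 0.051 (limma adjusted p = 0.0175) and -0.21 ± 0.045 (limma adjusted p = 0.0378). Their groups did not overlap, but the Efna1 call ended without Wildtype array 1 (adjusted p = 0.0513) and the Efnb2 call ended in 9 of the 12 fits (adjusted p up to 0.0883). Mcam, the adhesion molecule CD146, ran from 9.87 to 9.99 (median 9.92) with Wildtype plasma and from 9.59 to 9.71 (median 9.67) with ApoE-Stab1-KO plasma, a change of -0.26 ± 0.040 (limma adjusted p = 0.00284). Egfl7, a secreted endothelial factor, changed by -0.21 ± 0.040 (limma adjusted p = 0.0122), and Ptprm, a receptor phosphatase at endothelial contacts, by -0.29 ± 0.046 (limma adjusted p = 0.00367). All 3 had non-overlapping groups. Of 28 measured endothelial identity genes 2 fell (Mcam and Egfl7), 20 lay below Wildtype and the list median was -0.08. Cdh5 was at -0.09 ± 0.039 (limma adjusted p = 0.395), Erg at -0.08 ± 0.046 (limma adjusted p = 0.563) and Pecam1 at 0.02 ± 0.045 (limma adjusted p = 0.904). Cldn5, the tight junction claudin of endothelium, had a difference of -0.25 ± 0.058 (limma adjusted p = 0.0508) and none of the 22 measured junction genes was called by limma (7 at an unadjusted p under 0.05).

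Smad1, which carries BMP signals to the nucleus, fell by 0.26 ± 0.049 (limma adjusted p = 0.0135), from a range of 8.87 to 9.11 (median 8.96) to one of 8.64 to 8.79 (median 8.72). It was the 1 called gene of 22 BMP signalling genes, whose median was 0.01. The BMP target Id2 was at 0.22 ± 0.075 (limma adjusted p = 0.232). Igfbp3, a secreted binder of insulin-like growth factors, fell by 0.34 ± 0.074 (limma adjusted p = 0.0415), with no overlap, and its call ended in 9 of the 12 fits (adjusted p up to 0.0966). Amotl2, a regulator and target of YAP, rose by 0.25 ± 0.050 (limma adjusted p = 0.0280) as the 1 called gene of 23 TGF-beta and YAP targets, and its call ended in 4 of the 12 fits (adjusted p up to 0.0746).

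Immediate early genes, the transcription factors that respond first to growth signals, gave 3 called genes of 25 measured, all of which fell, with 18 of 25 negative and a median of -0.08. The orphan nuclear receptor Nr4a1 went from a range of 10.12 to 10.27 (median 10.20) to one of 9.76 to 9.92 (median 9.84), a change of -0.35 ± 0.065 (limma adjusted p = 0.0130) with no overlap. Fosl2, an AP-1 subunit, changed by -0.25 ± 0.045 (limma adjusted p = 0.0121), with 9.76 to 9.95 against 9.53 to 9.68. Myc changed by -0.28 ± 0.063 (limma adjusted p = 0.0452), with overlapping groups, and its call ended in 9 of the 12 fits (adjusted p up to 0.108). The homeobox gene Hlx, which is expressed in sprouting vessels, changed by -0.31 ± 0.069 (limma adjusted p = 0.0471), also with overlap, and lost its call in 10 of the 12 fits (adjusted p up to 0.106).

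Both fructose-1,6-bisphosphatases, which work against glycolysis, fell. Fbp1 went from a range of 6.50 to 6.83 (median 6.54) to one of 6.04 to 6.35 (median 6.24), a change of -0.37 ± 0.071 (limma adjusted p = 0.0155). Fbp2 changed by -0.46 ± 0.082 (limma adjusted p = 0.00898), from a range of 6.86 to 7.28 (median 7.12) to one of 6.38 to 6.91 (median 6.60), with overlapping groups. Of 29 measured hypoxia and glycolysis genes 1 rose (Vegfa) and 1 fell (Fbp1), and the median was 0.07. Atf5, a stress-responsive transcription factor, rose by 0.42 ± 0.083 (limma adjusted p = 0.0185). The Atf5 groups overlapped and the call ended without Wildtype array 6 (adjusted p = 0.0571). It was the 1 gene called of 27 ATF4 targets, 22 of which had a positive difference (median 0.08). Psat1, of serine synthesis, was at 0.27 ± 0.062 (limma adjusted p = 0.0557). The 19 measured aminoacyl-tRNA synthetases gave no limma call (9 at an unadjusted p under 0.05), with 16 positive differences and a median of 0.10.

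Several further genes passed, of which F2r belongs to the list of haemostasis and fibrinolysis and the others to none. Mr1, which presents vitamin metabolites to T cells, rose by 0.33 ± 0.052 (limma adjusted p = 0.00367), with 8.68 to 8.98 (median 8.85) against 8.97 to 9.30 (median 9.19) and a slight overlap. Fmr1, an RNA-binding regulator of translation, rose by 0.27 ± 0.046 (limma adjusted p = 0.00639) without overlap. Havcr2, the immune checkpoint receptor TIM-3, rose by 0.31 ± 0.066 (limma adjusted p = 0.0363) and Cd80, a costimulatory ligand of T cells, by 0.20 ± 0.042 (limma adjusted p = 0.0264). The calls of Havcr2 and Cd80 each ended in 7 of the 12 fits (adjusted p up to 0.0863 and 0.0745). F2r, the thrombin receptor, rose by 0.21 ± 0.047 (limma adjusted p = 0.0490), and Itgav, the integrin alpha-V subunit, by 0.18 ± 0.040 (limma adjusted p = 0.0440). Those calls ended in 10 and 11 of the 12 fits (adjusted p up to 0.108 and 0.0966). On the falling side Ttyh1, a chloride channel family member, changed by -0.37 ± 0.069 (limma adjusted p = 0.0122) and Cables2 by -0.30 ± 0.049 (limma adjusted p = 0.00496), both without overlap. The vomeronasal receptor gene Vmn1r127 had the largest difference of all called genes, -1.35 ± 0.23 (limma adjusted p = 0.00556), from a range of 6.46 to 7.97 (median 6.83) to one of 4.80 to 6.05 (median 5.68). Wildtype array 1 held the highest of those values.

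**Figure D3:**
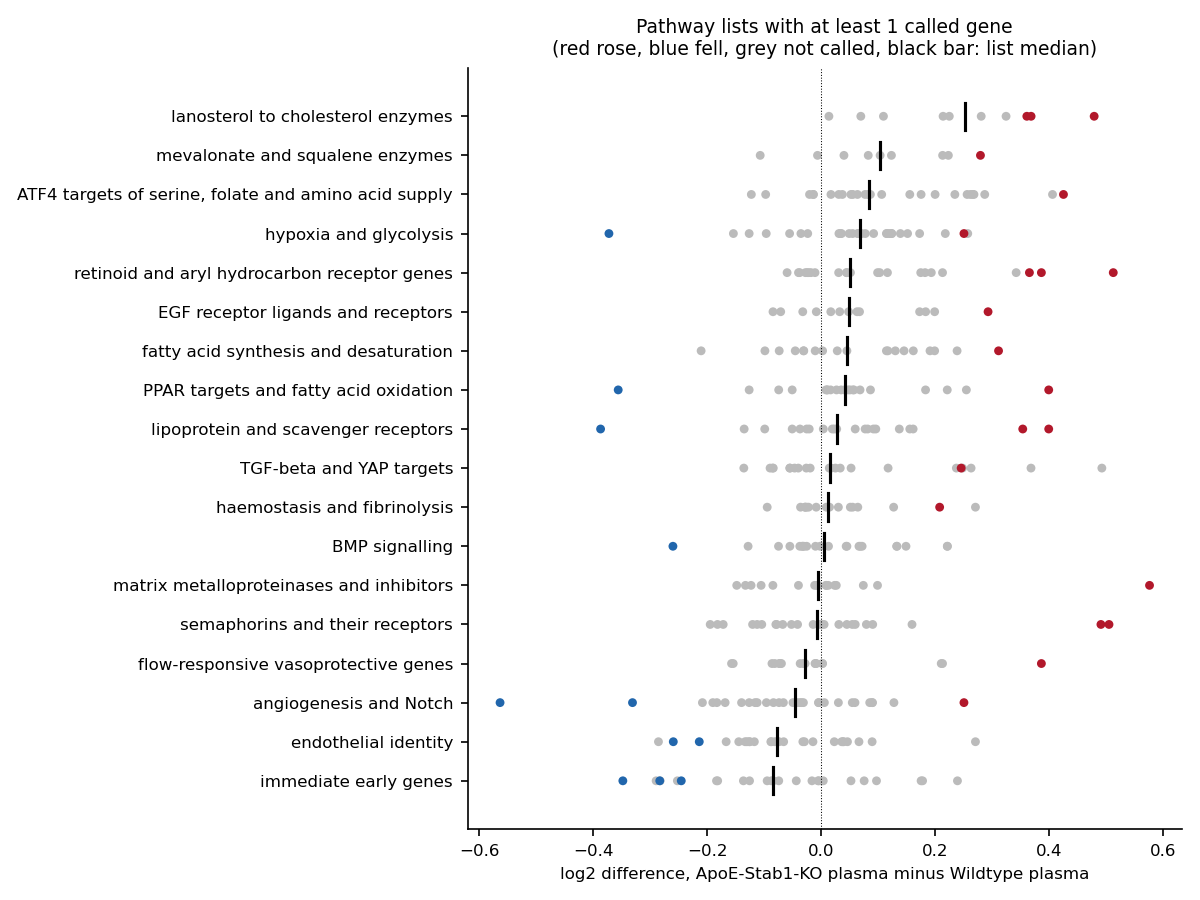
Each row is 1 of the 18 pathway lists that held a called gene, and each dot is 1 measured gene at its log2 difference between ApoE-Stab1-KO and Wildtype plasma. Red dots rose, blue dots fell, grey dots were not called and the black bar is the list median. The lanosterol to cholesterol enzymes lie wholly to the right of 0 (median 0.25). Medians of the other lists run from -0.08 to 0.10, against 0.004 over all genes tested. Some of these lists lean to one side, with 22 of 27 ATF4 targets above 0 and 18 of 25 immediate early genes below it.

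The remaining 21 of the 39 pathway lists had no gene called by limma, and their medians lay between -0.07 and 0.10. They held 406 distinct genes, of which 75 (18.5%) had an unadjusted p under 0.05, against 11.3% of all genes tested. They included leukocyte adhesion molecules and chemokines (27 genes, median 0.001), cholesterol efflux and LXR targets (11 genes, median -0.001), cell cycle genes (39 genes, median -0.002), respiratory chain genes (27 genes, median 0.0003) and lysosomal genes (22 genes, median 0.002). At a limma unadjusted p under 0.05 these lists had 3, 4, 3, 4 and 2 genes, in that order. A median near 0 can hide opposite moves: the efflux and LXR genes ran from -0.31 to 0.18. Without ApoE-Stab1-KO array 1, Lpcat3 of the efflux list and E2f8 of the cell cycle list passed. Interferon-stimulated genes had no limma call among 30 measured (5 at an unadjusted p under 0.05), with Usp18, a brake on interferon signalling, at 0.48 ± 0.13 (limma adjusted p = 0.127). Metallothioneins Mt1 and Mt2, which bind zinc, were at 0.17 ± 0.054 (limma adjusted p = 0.202) and 0.30 ± 0.086 (limma adjusted p = 0.143). In all, 742 distinct genes of the pathway lists were measured, of which 18 rose and 11 fell.

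Small nucleolar RNAs guide chemical changes on ribosomal RNA and are mostly cut from introns of ribosomal protein and other host genes. Of 106 measured, 5 fell and none rose by the limma test, 84 (79.2%) were below their Wildtype level and their median difference was -0.17, whereas 48.2% of all genes tested were negative. At an unadjusted p under 0.05 there were 37 (34.9%, of which 35 lower), against 11.3% of all genes. The C/D type, which guides methylation, had a median of -0.28 over 64 genes and 4 of the 5 calls. The H/ACA type, which guides pseudouridine formation, had a median of -0.12 over 34 genes and 1 call. The mean over all 106 ranged from 7.27 to 7.49 on the Wildtype arrays and from 7.05 to 7.41 on the ApoE-Stab1-KO arrays, so these means overlapped. With any single array of either group left out the median over the 106 lay between -0.23 and -0.14. Without ApoE-Stab1-KO array 1 it was -0.16, with 7 called, all lower. With ApoE-KO and ApoE-Stab2-KO plasma the medians over the 106 against the same Wildtype arrays were -0.04 and -0.05. By type they were -0.06 and -0.02 for C/D and 0.06 and -0.13 for H/ACA. The H/ACA genes thus lay as low with ApoE-Stab2-KO plasma (26 of 34 below Wildtype) as with ApoE-Stab1-KO plasma (also 26 of 34). Of all 106, 64 were below Wildtype with ApoE-KO and 71 with ApoE-Stab2-KO plasma, and of the 64 C/D genes 46 and 39. The mean over the 106 ranged from 7.08 to 7.62 on the ApoE-KO arrays and from 7.06 to 7.65 on the ApoE-Stab2-KO arrays. Both ranges overlapped that of the ApoE-Stab1-KO arrays.

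Most genes in 5 chosen classes of other small structural RNAs had negative differences too. Of 12 measured genes in 5 RefSeq classes (ribosomal, Y, RNase P, RNase MRP and small nuclear RNA) 11 were below Wildtype and the median was -0.34. None was called by limma, and 6 had an unadjusted p under 0.05. At least 1 of the 12 is not separate from the snoRNAs: Snord73b (-0.47) carries a snoRNA name though filed as small nuclear RNA. The function of the others was not checked. Classes outside the 5 varied. Of 8 guide RNA genes 4 were below Wildtype (median 0.007), and of 44 miscellaneous RNA genes 29 were (median -0.04). The ribosomal RNA gene n-R5s136 was at -0.87 ± 0.23 (limma adjusted p = 0.102), Rny1, a Y RNA, at -0.49 ± 0.16 (limma adjusted p = 0.203) and Rmrp, the RNA of RNase MRP, at -0.33 ± 0.14 (limma adjusted p = 0.360). With ApoE-KO and ApoE-Stab2-KO plasma 10 of the 12 were below Wildtype in each case, with medians of -0.14 and -0.18. Whether a shift shared by small structural RNAs had a part in the snoRNA differences was not tested.

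Snord47 ran from 11.35 to 11.68 (median 11.60) with Wildtype plasma and from 10.76 to 11.29 (median 11.12) with ApoE-Stab1-KO plasma, a change of -0.48 ± 0.086 (limma adjusted p = 0.00898) with no overlap. Snord68 changed by -0.73 ± 0.13 (limma adjusted p = 0.00742), from a range of 9.29 to 9.88 (median 9.81) to one of 8.60 to 9.30 (median 8.97), with a slight overlap. Snord14e changed by -0.46 ± 0.087 (limma adjusted p = 0.0151). Snora7a and Snord14a changed by -0.71 ± 0.14 (limma adjusted p = 0.0212) and -0.51 ± 0.10 (limma adjusted p = 0.0264), calls that ended in 2 and 6 of the 12 fits (adjusted p up to 0.0617 and 0.0706). The probe sets of the host genes, chosen after the values were seen, did not pass: Rpl13, host of Snord68, was at 0.04 ± 0.097 (limma adjusted p = 0.917), Gas5, host of Snord47, at 0.02 ± 0.054 (limma adjusted p = 0.916), Rps13, host of Snord14a, at -0.25 ± 0.22 (limma adjusted p = 0.723) and Hspa8, host of Snord14e, at -0.14 ± 0.23 (limma adjusted p = 0.878). Mean levels of Rpl13 were 4.71 with ApoE-Stab1-KO and 4.67 with Wildtype plasma, and those of Rps13 4.53 and 4.78. Both lay close to the median level of all genes, 4.30, so these probe sets may not follow the host messages. Rpl32, host of Snora7a, was not among the genes tested. Hspa8 was at 9.78 on ApoE-Stab1-KO array 1 and between 11.6 and 11.8 on the other 5 arrays of its group. Without array 1 its difference was 0.19 (limma adjusted p = 0.367).

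Among other non-coding transcripts 9 long non-coding RNAs, 1 miRNA precursor and 2 pseudogenes fell, and 1 long non-coding RNA (Gm15628) rose. The long non-coding RNA Gm16617 had the smallest p of all genes: its level lay between 4.40 and 4.88 (median 4.43) with Wildtype plasma and between 3.50 and 3.96 (median 3.81) with ApoE-Stab1-KO plasma, a change of -0.77 ± 0.092 (limma adjusted p = 0.000274). That is below the median level of all genes on every ApoE-Stab1-KO array. Gm13609 changed by -1.04 ± 0.14 (limma adjusted p = 0.000599), from a range of 7.87 to 8.90 (median 8.06) to one of 6.76 to 7.48 (median 7.14), with the highest value on Wildtype array 1 and no overlap. Gm15628 rose by 0.55 ± 0.11 (limma adjusted p = 0.0202), with overlapping groups, and its call ended without ApoE-Stab1-KO array 3 or Wildtype array 1 (adjusted p up to 0.0597).

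The miRNA precursor Mir1896 was the single miRNA gene of 534 that was called. Its mature product is shown with the seed (bases 2 to 8) in capitals, since the seed sets which messages a miRNA can pair with. It lies at chr13:21445209-21445230 (plus strand) on GRCm38.p6, from RefSeq.
mmu-miR-1896: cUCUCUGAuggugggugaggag
The probe set gave 4.33 to 4.97 (median 4.41) with Wildtype plasma and 3.56 to 3.96 (median 3.75) with ApoE-Stab1-KO plasma, without overlap, and changed by -0.83 ± 0.15 (limma adjusted p = 0.0122). The ApoE-Stab1-KO levels were all below the median of all genes, and the array does not separate precursor from mature RNA.

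**Figure D4:**
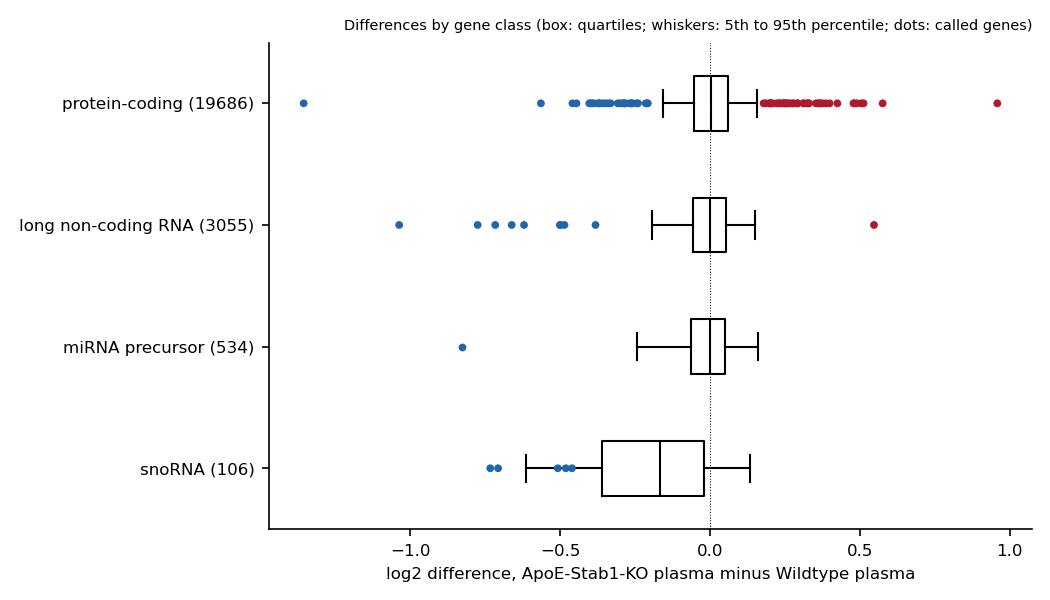
The box plots show the log2 difference between ApoE-Stab1-KO and Wildtype plasma for 4 gene classes, with the number of genes in brackets, quartiles as boxes and the 5th to 95th percentile as whiskers. Dots are called genes, red for higher and blue for lower. The median of the snoRNA box is -0.17, while those of the other 3 classes shown, the largest by number of genes, run from 0.0009 to 0.0048.

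A direct comparison with ApoE-Stab2-KO plasma called 12 genes (0.0486%, with 2712 at an unadjusted p under 0.05), 3 higher and 9 lower with ApoE-Stab1-KO plasma. Of the 12, 3 were protein-coding, and the others were non-coding RNAs or pseudogenes. A separate fit on protein-coding genes alone, added after the data were seen, called 2. Mir1896 was at 3.56 to 3.96 with ApoE-Stab1-KO plasma and 4.71 to 5.36 (median 5.02) with ApoE-Stab2-KO plasma, a difference of -1.25 ± 0.15 (limma adjusted p = 0.000694). Gm16617 differed by -0.68 ± 0.092 (limma adjusted p = 0.00192), Gm13609 by -0.91 ± 0.14 (limma adjusted p = 0.00487) and Snord68 by -0.74 ± 0.13 (limma adjusted p = 0.0168). Ecsit, an assembly factor of respiratory complex I, differed by -0.53 ± 0.081 (limma adjusted p = 0.00554), with 5.17 to 5.54 against 5.70 to 6.14. Aph1b, a subunit of the gamma-secretase that cleaves Notch, was higher by 0.31 ± 0.051 (limma adjusted p = 0.0120), with 6.96 to 7.19 against 6.55 to 6.92 and no overlap. Aph1b also rose against Wildtype plasma, by 0.24 ± 0.051 (limma adjusted p = 0.0378), a call that ended in 10 of the 12 fits (adjusted p up to 0.0818). The count of 12 became 37 without ApoE-Stab1-KO array 1, 32 without ApoE-Stab1-KO array 4 and 19 without ApoE-Stab2-KO array 6.

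Dll4, Sprr1a and Stab2, called against Wildtype plasma, passed neither direct test. Dll4 differed from its level with ApoE-KO plasma by -0.10 ± 0.075 (limma adjusted p = 0.964) and from that with ApoE-Stab2-KO plasma by -0.16 ± 0.071 (limma adjusted p = 0.410). For Sprr1a the values were -0.21 ± 0.14 (limma adjusted p = 0.954) and -0.13 ± 0.13 (limma adjusted p = 0.772). For Stab2 they were -0.10 ± 0.069 (limma adjusted p = 0.955) and 0.01 ± 0.066 (limma adjusted p = 0.965). Missing the threshold does not show that the plasmas acted alike, and an interval of 2 standard errors around each value shows the differences these arrays leave room for.

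**Figure D5:**
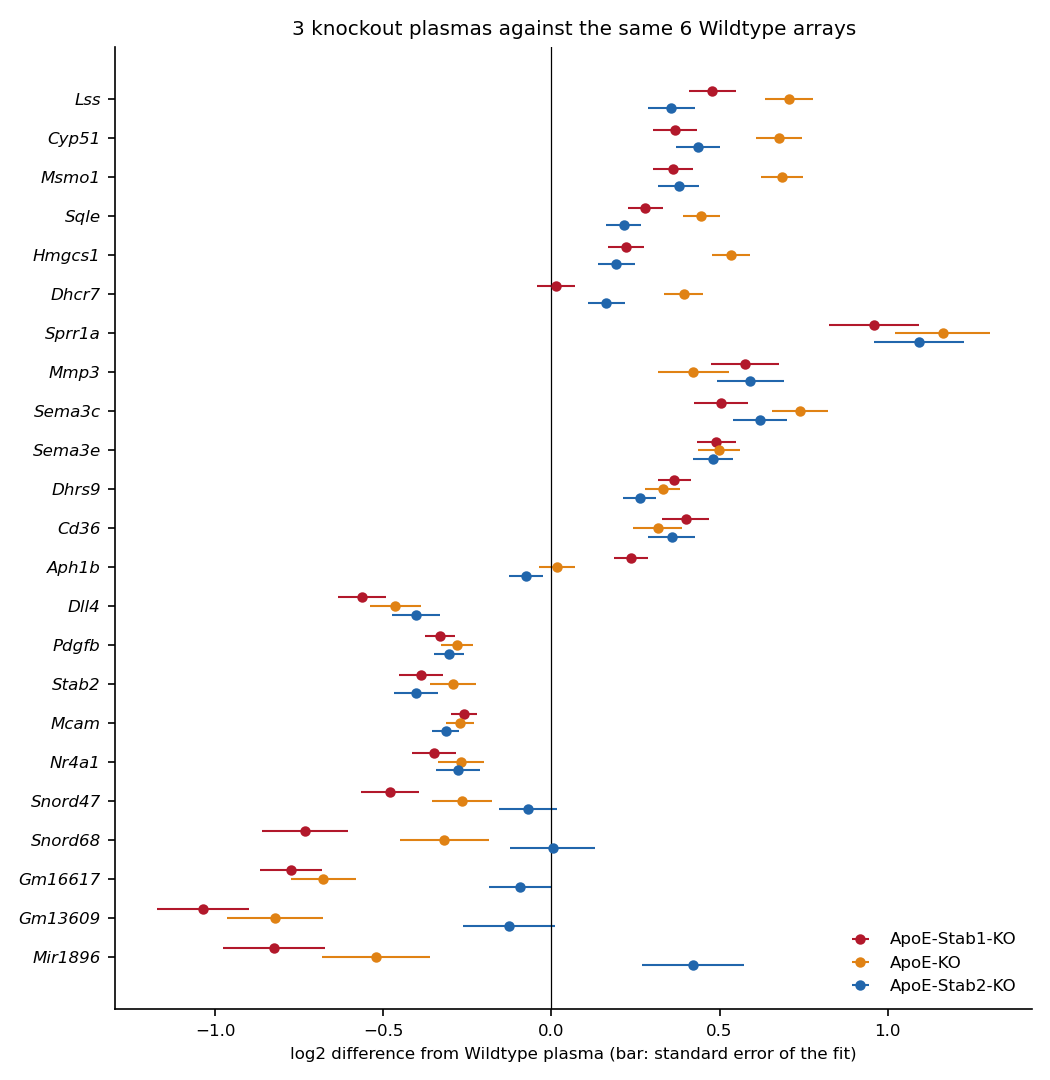
Points are log2 differences of 3 knockout plasmas from the same 6 Wildtype arrays, with the standard error of the fit as bars, for 23 named genes. For Sema3e, Pdgfb and Mcam the 3 plasmas lie close together. For Lss, Msmo1 and Dhcr7 ApoE-KO plasma (orange) lies to the right of ApoE-Stab1-KO plasma (red), and for Snord68, Gm16617, Gm13609 and Mir1896 ApoE-Stab2-KO plasma (blue) lies to the right of both others.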

How the data were processed

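RNA for 23 arrays was hybridised as biotin-labelled cRNA to Affymetrix expression arrays, per the labels' protocols, and the authors deposited log2 values summarised by RMA (robust multi-array averaging), per the submitters' processing notes. The software version and any filter are not stated there. Of 25428 probe sets, 24705 had 1 symbol in the platform annotation and 723 none; the 2 probe sets of 1 symbol were reduced to 1, which left 24704 genes. Gene classes, promoter windows and the miRNA came from RefSeq tables on GRCm38.p6, and 24672 genes matched by gene ID. No further normalization was applied.

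Group means of the 4 plasmas were fitted over all 23 arrays with limma 3.58.1 (lmFit, eBayes) in R 4.3.3, with contrasts against ApoE-Stab1-KO and p-values adjusted by Benjamini-Hochberg over all genes; a gene was called at an adjusted p under 0.05. The fit was also run on simulated data, with independent normal noise for each gene and no outlying array. Such data differ from these arrays, so that run cannot vouch for the count of called genes. The median standard error of the main contrast was 0.067, and the number of arrays limits this precision. Figures were drawn with Python 3.11.15 and matplotlib 3.10.9.

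Genes eligible to be named were the 15 highest and 15 lowest called genes and the 10 with the smallest p. Called members of each of 39 pathway and 7 marker lists, or else 2 with the smallest p, were eligible too. Stabilin and endothelial genes, genes called between knockout plasmas and every other called gene completed the set. Predicted genes, clones and small RNAs stayed out of the highest, lowest and smallest-p genes. The text names only part of the set, and that choice followed no stated rule. Called genes left out include Sult2a4 and Tmprss11f, which rose, and Vxn, Nwd1, St8sia4 and Fam193b, which fell. The lists, the rule and the comparison were chosen with earlier results of these data known. Alternatives were centring, quantile normalization, a level filter, trend and robust moderation, array weights, only the arrays compared, a replicate block, every probe set, a 1.5-fold limit and leaving out each array. Fits on protein-coding genes and without both arrays numbered 1, and list values without ApoE-Stab1-KO array 1, were added after seeing the data.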

Additional observations from a re-analysis of the deposited data

Results flagged for a closer look

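In 9 of 170 group and gene pairs (85 named genes in the ApoE-Stab1-KO and Wildtype groups), 1 array lay far from the other 5 by Dixon's test at the 95% level, and chance alone gives about 1 in 20. With Wildtype plasma Gm13609 was highest on array 1 at 8.90 (group median 8.06), Vmn1r127 was highest on array 1 at 7.97 (median 6.83) and Krt19 was lowest on array 1 at 4.93 (median 5.08), while Cyp26b1 was highest on ApoE-Stab1-KO array 1 at 8.24 (median 7.95). Fbp1 was highest on Wildtype array 2 at 6.83 (median 6.54) and Krt20 on Wildtype array 5 at 9.41 (median 9.18), as was Sparc at 12.54 (median 12.51). Cldn5 was lowest on ApoE-Stab1-KO array 3 at 10.57 (median 10.91). Snord14e was highest on ApoE-Stab1-KO array 5 at 10.46 (median 10.08). On ApoE-Stab1-KO array 1 Sod1, a superoxide dismutase, was at 3.60 against 6.48 to 8.01 on the other 5 arrays of its group, and Tuba1a, an alpha-tubulin, was at 5.82 against 8.28 to 9.23, while Atp5h, an ATP synthase subunit, was at 6.02 against 3.27 to 4.29. These 3 genes were picked for their distance and none was called. Among 724 probe sets outside the genes tested 10 passed the same test, 4 higher and 6 lower with ApoE-Stab1-KO plasma.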

How the results depend on the processing

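The 90 genes called against Wildtype plasma became 151 when only genes above the median level were tested, 21 with only the 12 arrays compared and 11 with a 1.5-fold limit. Leaving out 1 array gave 54 to 124. Centring (90), quantile normalization (92), trend and robust moderation (125), array weights (70), every probe set (109), protein-coding genes alone (75) and the fit without both arrays numbered 1 (69) stayed within 1.5 times of 90. Centring and quantile normalization could change little on arrays that already shared nearly the same distribution. Against ApoE-KO plasma the single call became 2 with trend and robust moderation, 0 with only the arrays compared and 0 with the 1.5-fold limit, and 0 to 2 when 1 array was left out. Against ApoE-Stab2-KO plasma the 12 calls became 21 with trend and robust moderation, 4 with only the arrays compared, 6 with the 1.5-fold limit and 2 in protein-coding genes alone, and 8 to 37 when 1 array was left out. None of the 90 called genes changed sign in these fits, which their choice by a small p on the same arrays made unlikely beforehand. Among genes named without a call, Pecam1, Dhcr7 and Apoe, all near 0, changed sign in 2, 2 and 7 fits, reaching -0.013, -0.0089 and -0.036, and Hspa8 changed sign without ApoE-Stab1-KO array 1 (0.19). The cause of each move was not tested beyond the fewer genes or arrays that the setting itself leaves. Precision is limited by the 6 arrays of each plasma.

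ApoE-Stab1-KO and Wildtype arrays with the same replicate number did not deviate together over all genes (correlations from -0.057 to 0.012). Correlations over all genes cannot exclude a pairing that touches fewer genes. With a replicate block 61 genes were called against Wildtype plasma, 54 of them among the 90, 0 against ApoE-KO plasma and 9 against ApoE-Stab2-KO plasma.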
